A study of Mus musculus with 20 samples.

Results

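The spleen experiment asked which RNAs of iron-poor mouse spleen are held by iron regulatory protein 1 (IRP1) in an immunoprecipitation. It comprised 4 of the 20 arrays of the series: the 2 on which RNA recovered with recombinant IRP1 was hybridized, and the 2 on which RNA from the control reaction was hybridized. The arrays were chosen by tissue and reaction as labelled, and every probe set except the Affymetrix controls was tested, 45037 of 45101. The spleens came from C57BL6/J mice, females and males together, that had been kept from weaning for 21 days on feed with less than 10 mg iron per kg. Both groups therefore share the iron-poor diet, and the series holds no iron-replete spleen among the samples used here. Pooled total RNA, 50 µg per reaction, was mixed with a rabbit polyclonal antibody against IRP1, with His-tagged IRP1 made in E. coli added for the IRP1 group and left out for the control group. About 120 ng of the recovered RNA was amplified and hybridized to Affymetrix Mouse430_2 arrays. The other 16 arrays hold the same reactions on duodenum and liver of mice on the same diet, and on bone marrow and brain of mice fed normal iron and 8 to 10 weeks old.

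IRP1 is a cytosolic protein that carries an iron-sulfur cluster when iron is plentiful and then acts as an aconitase. Without the cluster it binds a short RNA stem-loop, the iron-responsive element (IRE). Bound to an IRE in the 5' UTR it blocks translation, as in the ferritin mRNAs and in the mRNA of ferroportin, and bound to the IREs in the 3' UTR of the transferrin receptor mRNA it protects the transcript from decay. In the spleen, macrophages of the red pulp take up aged red cells, open their heme and return the iron through ferroportin, while the white pulp holds B and T cells; the mouse spleen also makes red cells. The protein was added to isolated RNA here, so a higher signal with IRP1 is a measure of RNA recovered by the added protein and not of transcription in the tissue. Array signals are on a log2 scale on which a difference of 1 is 2-fold. The arrays have like median signals, though not the same spread, so a difference is relative to the other RNAs of the same reaction.

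The arrays carried the marker genes of spleen. The mean log2 signal of 17 B cell genes ran from 9.89 to 10.59 over the spleen arrays and reached at most 8.70 on any array of another tissue. For 15 T cell genes the spleen arrays spanned 8.16 to 8.45, against at most 6.77 elsewhere. Genes of heme recycling and red pulp macrophages, 20 in number, lay between 8.42 and 9.13 in spleen, with a highest value of 8.66 elsewhere, and 16 erythroid genes averaged 9.01 in spleen against 10.47 in bone marrow. Genes typical of other organs gave signal too. The 9 pancreatic acinar genes averaged 10.15 in spleen, at 9.83 and 10.56 on the IRP1 arrays and 9.76 and 10.46 on the controls. Hepatocyte genes, 6 in number, were 1.64 (IRP1) and 1.81 (control) higher on the replicate 2 arrays than on the replicate 1 arrays. This difference between replicate numbers was of like size in both reactions.

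Whole-array correlations among the spleen arrays lay between 0.980 and 0.990, and no 2 arrays of the series shared more than a fraction of 0.000666 of identical values. The hybridization spikes of both replicate 2 arrays of spleen were 2.15 (IRP1) and 2.33 (control) log2 below the median array of the series, while those of the replicate 1 arrays lay within 0.07 of it. The labels do not say whether the replicates were separate pools of mice, so the p-values speak only to spread among these reactions and arrays, which may be technical. With 2 arrays against 2, an exact permutation test of one probe set cannot go below p = 0.333, and all adjusted p-values below come from a limma model of all 20 arrays in 10 groups.

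With IRP1, 31 probe sets were higher and 15 were lower than in the control at an adjusted p under 0.05, which is 0.0688% and 0.0333% of the 45037 tested. The higher ones were led by Lpar1, Cxcl16, Tfrc, Cep95, Egr2 and Pfn2, and the lower ones by Marveld1 and Cd22. The 25 higher probe sets with a single gene symbol stand for 17 genes and the 11 such lower ones for 11 genes. Increases were large and decreases small: all 31 increases reached 2-fold and 23 reached 4-fold, with a median log2 change of 2.52, whereas 11 of the 15 decreases reached 2-fold and 0 reached 4-fold, with a median of -1.14. Over all probe sets the median change was -0.01, and 1190 were higher and 3096 lower at an unadjusted p under 0.05. In all 46 called probe sets both IRP1 arrays lay on one side of both controls; over all probe sets 7916 lay above and 9955 below both controls.

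**Figure D1:**
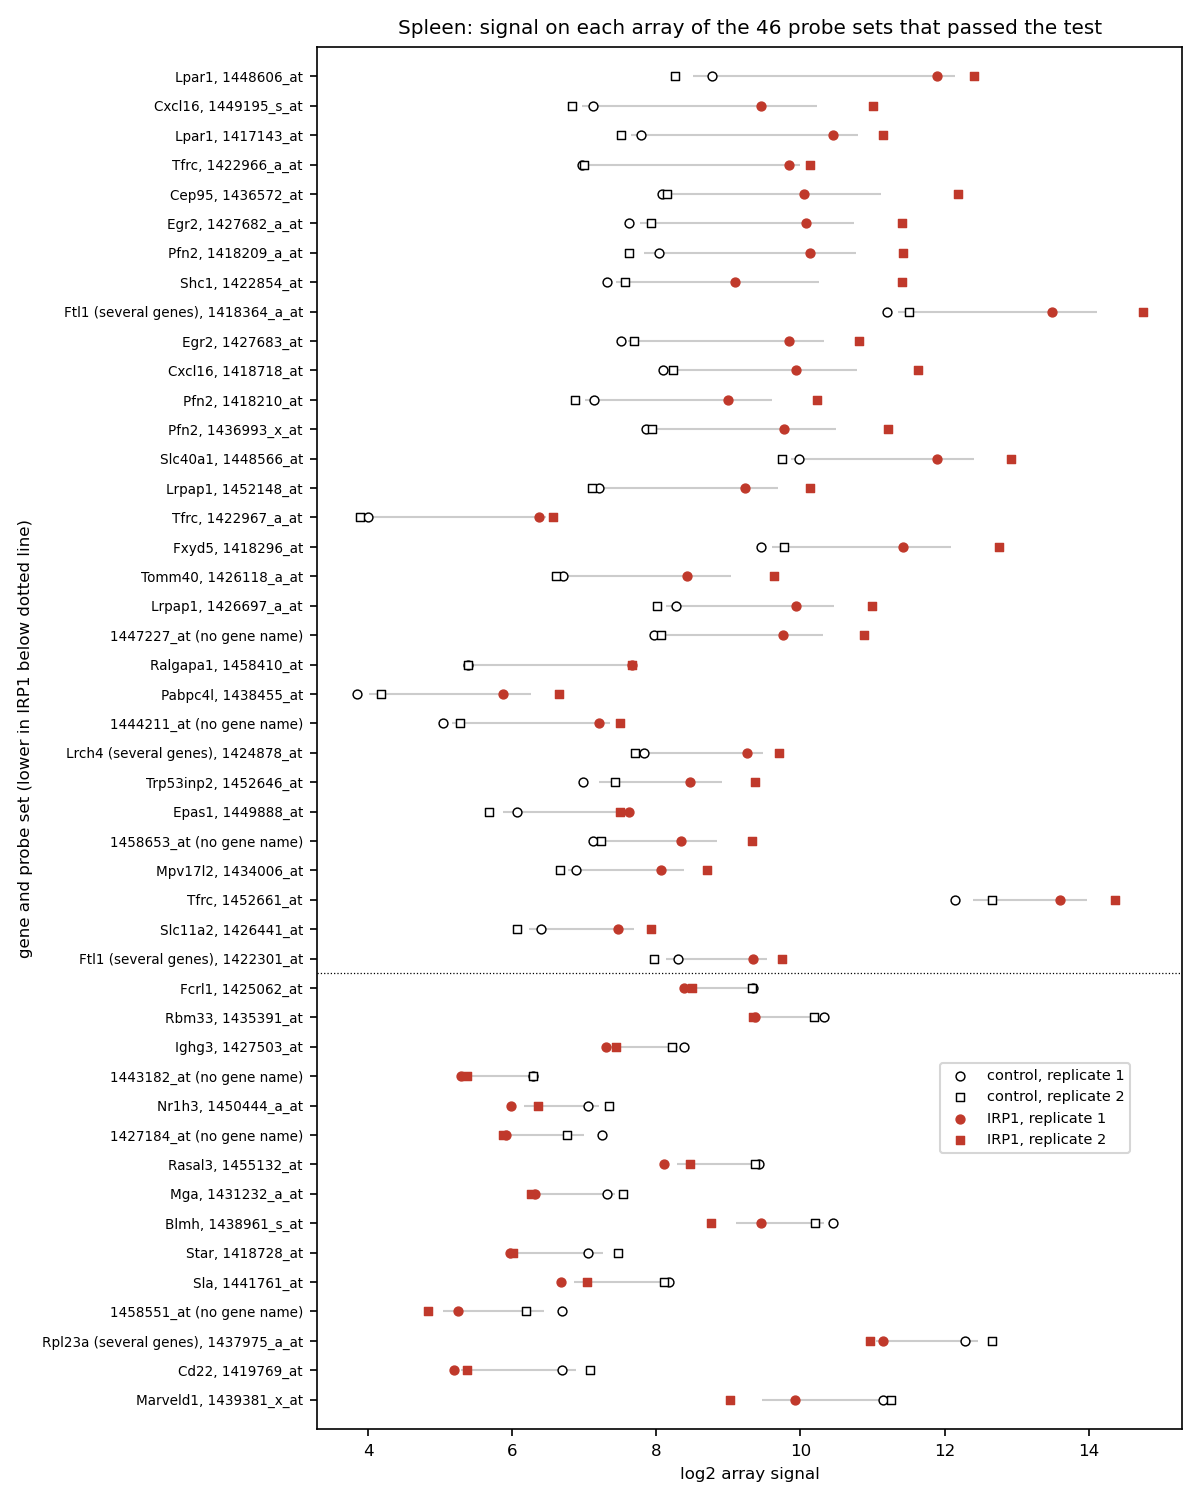
Log2 signal on each of the 4 spleen arrays (x axis) of the 46 probe sets with an adjusted p under 0.05 (y axis, ordered by change); open symbols are controls, filled symbols IRP1, circles replicate 1 and squares replicate 2, and grey lines join the group means. In 30 of the 31 higher probe sets the IRP1 square lies right of the IRP1 circle, and the groups overlap in none of the 46.

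The counts of calls depended on scaling and on single arrays. After a further quantile normalization 107 were called higher and 12 lower. Without IRP1 replicate 1 the model called 210 probe sets higher and 12 lower, without IRP1 replicate 2 it called 10 and 7, without control replicate 1 it called 9 and 3, and without control replicate 2 it called 6 and 0; in each case the lone array is assumed to vary like the other groups. The 4 spleen arrays alone gave 0 calls by limma, with 730 higher and 3170 lower at an unadjusted p under 0.05. There were 6 probe sets called whichever spleen array was left out: those of Lpar1 (2), the 2 dimmer ones of Tfrc, and 1 each of Pabpc4l and Ralgapa1. Of these, that of Ralgapa1 was not called without the 2 arrays with weak hybridization spikes. Leaving out those 2, the replicate 2 arrays, leaves 1 IRP1 array against 1 control array, with the spread taken from the other tissues. Weak spikes and lost replication cannot be told apart in that setting.

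IREs of the 5' UTR are found in mRNAs of proteins that store, export or use iron or respond to low oxygen, and 4 of them were measured under a single symbol: Fth1, Alas2, Slc40a1 and Epas1. By their brightest probe sets all 4 lay above both controls, with a median log2 change of 1.02, and 0 of 4 passed the test over all probe sets, where 12 of 18193 genes (0.066%) were called higher and 7 (0.0385%) lower. Dimmer probe sets of Slc40a1 and Epas1 did pass. Over all 18193 genes by brightest probe set the median change was -0.03, and 2978 lay above both controls.

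Slc40a1 encodes ferroportin, the exporter through which macrophages release iron. Its dimmer probe set read 11.89 and 12.92 with IRP1 and 9.98 and 9.75 in the controls, a rise of 2.54 (SE 0.30, 5.82-fold, adjusted p = 0.00128). Its brighter probe set read 12.75 and 13.59 against 12.28 and 12.53, a difference of 0.77 (SE 0.27, adjusted p = 0.381). The 2 readings of one gene thus differed widely in the size of the change. Without control replicate 2 the dimmer probe set was no longer called.

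Epas1 encodes HIF-2 alpha, a transcription factor of the response to low oxygen that also controls iron uptake and erythropoietin. By its dimmer probe set it read 7.62 and 7.495 with IRP1 and 6.07 and 5.68 in the controls, a rise of 1.68 (SE 0.26, adjusted p = 0.0154). The brighter one gave 12.66 and 13.33 against 11.86 and 12.00, a difference of 1.06 (SE 0.34, adjusted p = 0.342). Leaving out any spleen array other than IRP1 replicate 1 ended the call. The same held for the called probe sets of Cxcl16, Egr2, Fxyd5, Tomm40, Shc1, Lrpap1, Cep95, Trp53inp2, Mpv17l2, Slc11a2 and Ftl1 given below. It also held for the brightest probe set of Tfrc.

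Alas2, which makes the first precursor of heme in red cell precursors, read 12.89 and 14.02 with IRP1 and 11.57 and 11.90 in the controls. The groups did not overlap and the difference was 1.72 (SE 0.39), with an adjusted p of 0.156. Fth1, the ferritin heavy chain, read 14.21 and 14.98 against 13.64 and 13.58 by its brighter probe set (difference 0.98, SE 0.23, adjusted p = 0.189) and 13.75 and 14.61 against 12.80 and 13.08 by the other (1.24, SE 0.27, adjusted p = 0.130). After a further quantile normalization both Fth1 probe sets (adjusted p = 0.0294 and 0.000182) and the brighter one of Slc40a1 (0.026) were called, and without IRP1 replicate 1 both of Fth1 and Alas2 were called (0.0126, 0.00804 and 0.0171). For the ferritin light chain, 3 probe sets list Ftl1 together with a pseudogene or other genes, so how much of each signal comes from Ftl1 itself is uncertain. The first read 13.49 and 14.75 against 11.20 and 11.51, a rise of 2.76 (SE 0.44, 6.80-fold, adjusted p = 0.0173). The second rose by 1.41 (SE 0.24, adjusted p = 0.0285), from 8.30 and 7.96 to 9.34 and 9.75. The third, at 13.02 and 14.08 against 11.67 and 12.29, differed by 1.57 (SE 0.41, adjusted p = 0.239).

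Among the 5 measured genes of the 3' UTR list, whose IREs are established or reported, 1 rose by its brightest probe set, and 1 more, Slc11a2, by another probe set. Tfrc, the transferrin receptor through which cells take up iron, rose by all 3 of its probe sets. The one of middle brightness read 9.85 and 10.14 with IRP1 and 6.98 and 6.99 in the controls (rise 3.01, SE 0.28, 8.03-fold, adjusted p = 8.54e-05). The dimmest read 6.38 and 6.57 against 4.01 and 3.89 (rise 2.52, SE 0.18, adjusted p = 9.79e-06; 1.48 with values under 5 set to 5, since the controls lie near the floor of the scale), and the brightest 13.60 and 14.36 against 12.14 and 12.66 (rise 1.58, SE 0.28, adjusted p = 0.0344). Both dimmer probe sets separated the reactions by many times the gap between replicates, and the brightest one showed the smallest change, as for Slc40a1 and Epas1.

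Slc11a2 encodes the iron transporter DMT1, whose transcripts come in forms with and without the IRE. One probe set rose by 1.46 (SE 0.25, adjusted p = 0.0266), from 6.39 and 6.07 to 7.47 and 7.92. Another, at 8.70 and 9.66 against 7.59 and 7.68, differed by 1.54 (SE 0.31, adjusted p = 0.0945). The third, at 5.92 and 5.85 against 4.93 and 4.996, differed by 0.92 (SE 0.24, adjusted p = 0.233). The fourth read 8.76 and 9.30 against 8.88 and 8.77, so its groups overlapped (0.21, SE 0.32, adjusted p = 0.891). Which transcript each of the 4 probe sets reads was not examined here.

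Hao1, a peroxisomal oxidase made chiefly in liver, stood out on a single array: it read 4.02 and 6.83 with IRP1 and 3.92 and 4.08 in the controls (difference 1.43, SE 0.54, adjusted p = 0.419; without IRP1 replicate 1 it was 2.83, adjusted p = 0.000104). Hepatocyte genes averaged 7.92 on the array with the high value and 8.13 on control replicate 2, where Hao1 was at 4.08. In other tissues Hao1 changed by 0.48 (duodenum), 2.03 (liver), 0.79 (bone marrow) and 1.88 (brain), without a call. The 3 probe sets of Cdc14a, a phosphatase, changed by between -0.37 and -0.02, and the 4 of Cdc42bpa, a kinase of actin organisation, by between -0.20 and 0.05; none passed the test. Among 5 measured genes with a proposed IRE, 0 were called and the median was -0.36: App, the amyloid precursor, was at -0.03 (SE 0.22), Prnp, the prion protein, at -0.36 (SE 0.24), Ndufs1 of respiratory complex I at -0.54 (SE 0.23), Sdhb of succinate dehydrogenase at -0.66 (SE 0.29) and Bdh2, a dehydrogenase of siderophore synthesis, at 0.03 (SE 0.24). Ftl1, which the list of 5' UTR IREs also holds, has no probe set with a single symbol and was not counted there.

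**Figure D2:**
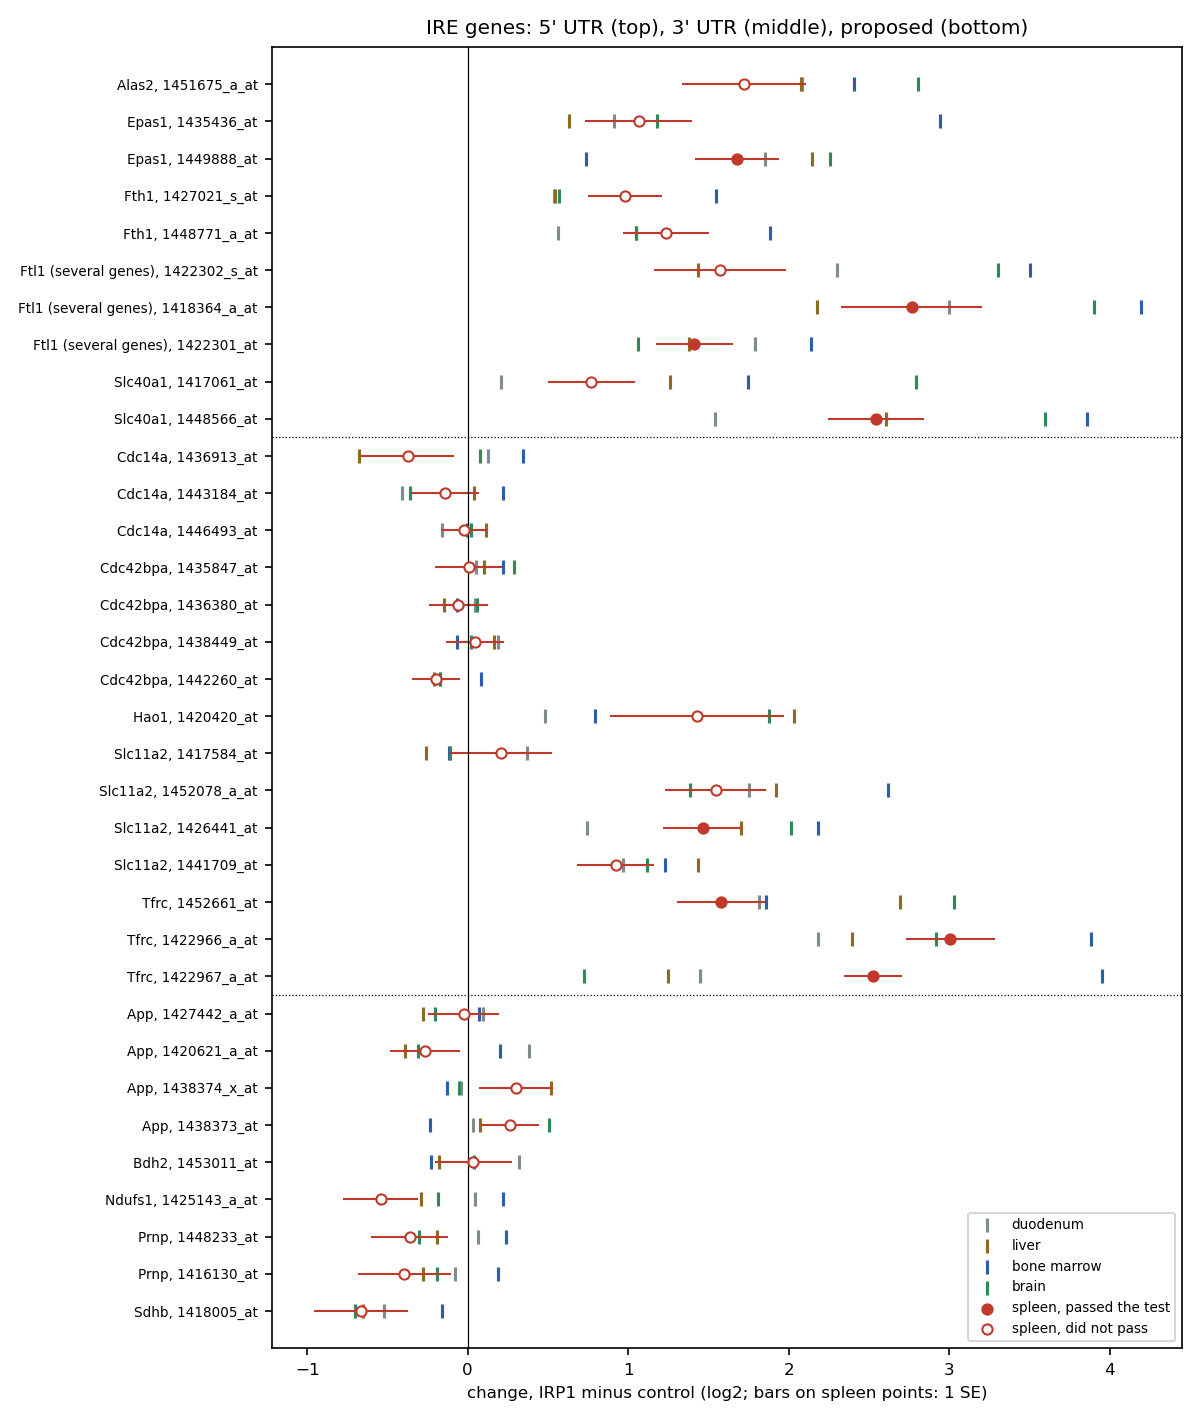
Change between IRP1 and control (log2, x axis) of each probe set of genes whose IRE lies in the 5' UTR or 3' UTR or is proposed; circles with bars are spleen with 1 standard error, filled where the adjusted p was under 0.05, and coloured ticks are the other 4 tissues. Spleen changes ran from 0.77 to 2.76 in the top block, whereas the bottom block has no called probe set.

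Outside the known IRE genes, the higher calls included genes of several families. The family lists were drawn up with earlier results of these data known, so 1 called member in a list says nothing about the family. Over all genes 12 of 18193 (0.066%) were called higher. Lpar1, a G protein-coupled receptor for lysophosphatidic acid, had the highest rise of all probe sets. It read 11.89 and 12.40 with IRP1 and 8.77 and 8.26 in the controls (rise 3.63, SE 0.30, 12.4-fold, adjusted p = 2.58e-05). A second probe set rose by 3.15 (SE 0.24, adjusted p = 1.11e-05), from 7.79 and 7.51 to 10.45 and 11.14, and another differed by 1.19. In the list of lysophosphatidic acid receptors 1 of 5 measured genes was called; Lpar6 was at -0.38, Lpar2 at -0.29 and Lpar3 at 0.17, and the list's median was 0.05.

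Cxcl16 is a membrane-bound chemokine and scavenger receptor of macrophages and dendritic cells, and its receptor is Cxcr6. One probe set read 9.46 and 11.004 against 7.12 and 6.83 (rise 3.26, SE 0.44, 9.55-fold, adjusted p = 0.00503) and the other 9.94 and 11.63 against 8.10 and 8.23 (rise 2.61, SE 0.38, adjusted p = 0.00906). Both IRP1 arrays were above the controls, with replicate 2 by far the higher. Of 10 measured chemokines and chemokine receptors of the spleen it was the 1 called; Cxcl12, the stromal chemokine that retains blood-forming cells, read 10.56 and 12.30 against 9.80 and 9.68 (difference 1.69, SE 0.42, adjusted p = 0.211), and Cxcr6 was at -0.64 (SE 0.26).

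Egr2, a zinc finger transcription factor induced in activated lymphocytes, read 10.08 and 11.42 against 7.62 and 7.93 (rise 2.97, SE 0.41, adjusted p = 0.00654), and 2.72 (SE 0.39) by its second probe set. Its relatives were at -0.38 (Egr3), -0.36 (Egr1) and 0.18 (Egr4), and 1 of 6 measured members was called. Pfn2, a profilin that binds actin monomers, rose by all 3 probe sets, by 2.95 (SE 0.34, 7.73-fold, adjusted p = 0.00111), and the other 2 by 6.09-fold and 6.05-fold; the first read 10.13 and 11.42 against 8.04 and 7.62. Without control replicate 2 the Pfn2 probe sets were no longer called. Pfn1, the common profilin, overlapped between the reactions at 9.08 and 10.04 against 8.36 and 9.59 (0.59, SE 0.37, adjusted p = 0.646).

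Fxyd5, a regulator of the sodium pump, read 11.43 and 12.75 against 9.45 and 9.77 (rise 2.48, SE 0.35, adjusted p = 0.00774), alone among 9 measured genes of its list. Tomm40, the channel of the mitochondrial outer membrane through which proteins are imported, read 8.43 and 9.63 against 6.70 and 6.62 (rise 2.37, SE 0.39, adjusted p = 0.0233), while its relative Tomm40l was at -0.32. Shc1, an adaptor between receptor tyrosine kinases and Ras, read 9.10 and 11.41 against 7.32 and 7.56 (rise 2.81, SE 0.49, adjusted p = 0.0337), the widest gap between IRP1 replicates of the genes named here as higher; its other probe set was at 0.37. Apba3, an adaptor of the same list, read 8.15 and 9.65 against 6.55 and 6.96 (2.15, SE 0.43, adjusted p = 0.0897).

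Some genes were called by one group of probe sets and not by another. Lrpap1, the chaperone of LDL receptor family proteins, rose by 2.53 (SE 0.37, adjusted p = 0.00906) and 2.33 by 2 probe sets and was at -0.24 and -0.19 by 2 others. Cep95, a centrosomal protein, rose by 3.00 (SE 0.49, adjusted p = 0.0196), at 10.05 and 12.18 against 8.08 and 8.15, and was at 1.22 and 0.16 by 2 others. Ralgapa1, a subunit of the complex that switches off Ral GTPases, has 8 probe sets, of which 1 was called: it read 7.66 and 7.67 against 5.39 and 5.39 (rise 2.27, SE 0.23, adjusted p = 0.000322). Its next one missed the threshold (1.72, SE 0.32, adjusted p = 0.0512). The brightest read 8.24 and 9.43 against 7.79 and 8.11, a difference of 0.89 (SE 0.305, adjusted p = 0.376). The rest were between -0.07 and 0.87 and were not called. Of the 14 higher genes with several probe sets, 4 had all of them called and 10 only some; all 10 lower genes with several had only some called.

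Smaller increases were those of Trp53inp2, which acts in autophagy, at 8.47 and 9.37 against 6.98 and 7.42 (rise 1.72, SE 0.27, adjusted p = 0.0173), and of Mpv17l2, a mitochondrial protein, at 8.07 and 8.71 against 6.88 and 6.66 (rise 1.62, SE 0.28, adjusted p = 0.0309). Pabpc4l, a relative of the poly(A)-binding proteins, read 5.87 and 6.65 against 3.85 and 4.19 (rise 2.24, SE 0.23, adjusted p = 0.000322); the control values lie near the floor of the scale, and with values under 5 set to 5 the rise was 1.26. One further higher probe set is shared by Lrch4 and a predicted gene, and 3 have no gene symbol.

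**Figure D3:**
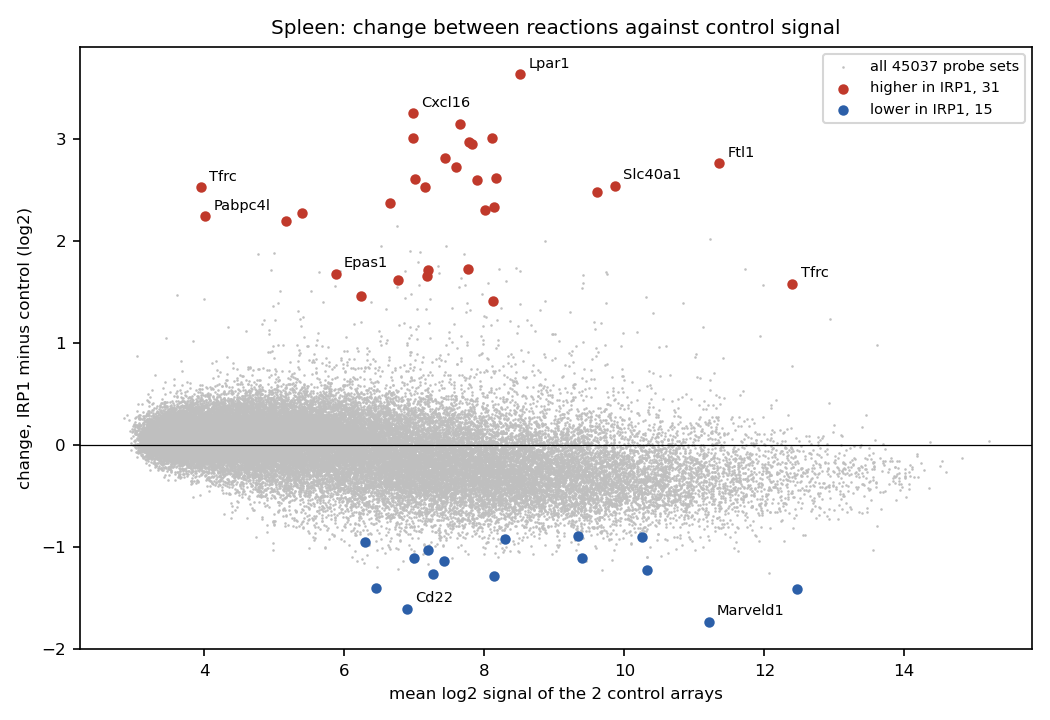
Change between IRP1 and control (log2, y axis) against the mean log2 signal of the control arrays (x axis) for all 45037 probe sets; red points are the 31 called higher and blue points the 15 called lower. The called increases lie at control levels from about Tfrc's dimmest to its brightest probe set, and the grey cloud lies below 0 at bright levels, where genes with control levels from 9 to 11 had a median of -0.29.

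Decreases were smaller than the increases. Marveld1, a MARVEL domain protein, read 9.92 and 9.02 with IRP1 and 11.15 and 11.26 in the controls, so it fell by 1.73 on the log2 scale (SE 0.28, adjusted p = 0.0191); its 3 other probe sets were between -0.41 and -0.09. Cd22, an inhibitory receptor of B cells, read 5.19 and 5.38 against 6.70 and 7.08 by its dim probe set and fell by 1.61 (SE 0.21, adjusted p = 0.0036); the bright one was at -0.65 (SE 0.25, adjusted p = 0.435). A probe set shared by Rpl23a and several predicted genes read 11.14 and 10.96 against 12.28 and 12.65 and fell by 1.42 (SE 0.21). Sla, a Src-like adaptor that dampens antigen receptor signalling, read 6.68 and 7.05 against 8.18 and 8.11 and fell by 1.28 (SE 0.19, adjusted p = 0.00906), while its 3 other probe sets were at 0.59, 0.46 and 0.20.

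Star, which moves cholesterol into mitochondria, fell by 1.26 (SE 0.18, adjusted p = 0.00774), from 7.05 and 7.47 to 5.97 and 6.02, with 2 other probe sets at -0.33 and -0.43. Blmh, a cysteine protease, fell by 1.22 (SE 0.21, adjusted p = 0.0255), from 10.45 and 10.21 to 9.45 and 8.76. Its other probe set was at -0.51 (SE 0.25) and was not called. Mga, a partner of MAX, Rasal3, a Ras GTPase-activating protein of blood cells, and Nr1h3, the oxysterol receptor LXR alpha that splenic macrophages need, fell by 1.14 (SE 0.20), 1.11 (SE 0.18) and 1.03 (SE 0.18). The 4 decreases under 2-fold were those of Ighg3, an immunoglobulin heavy chain gene (-0.93, SE 0.16), Rbm33, an RNA-binding protein (-0.90, SE 0.16), Fcrl1, an Fc receptor-like protein of B cells (-0.90, SE 0.16), and a probe set without a gene symbol (-0.95, SE 0.15). By other probe sets Fcrl1 was at 0.44, Rbm33 at 0.30 and -0.31, and Ighg3 between 0.07 and 0.20. Those of Mga lay between -0.27 and 0.24, and that of Rasal3 was at -0.74. The calls of Mga, Rasal3, Nr1h3, Ighg3, Rbm33 and Fcrl1 were lost whichever of the 4 spleen arrays was left out. The decreases were no longer called without control replicate 2, nor without both replicate 2 arrays, those with weak hybridization spikes. The latter leaves 1 IRP1 array against 1 control array.

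Among the cell type and pathway lists few single genes passed the test, and bright genes as a group were lower with IRP1. Of genes with a control level from 9 to 11, 45.7% lay below both controls and the median change was -0.29, against 5.18% and 0.09 for genes under level 5. Array IRP1 replicate 1 had the narrowest spread of signals, with a standard deviation of 2.01 log2 against 2.16 to 2.24 on the other 3. A further quantile normalization, which gives all arrays the same spread, moved the list medians up: from -0.49 to -0.25 for B cells, from -0.32 to -0.11 for red pulp macrophages, from -0.43 to -0.20 for the TCA cycle and from -0.28 to -0.04 for ribosomal proteins. The medians of T cells (0.09), erythroid cells (0.06) and iron genes without a known IRE (0.00) then turned from negative to positive, and that of all genes was 0.02.

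The 17 B cell genes were at a median of -0.49 with a median control level of 10.53; 0 were called, 9 were lower at an unadjusted p under 0.05, and 11 lay below both controls (64.7%, against 25% of all genes and 45.7% of genes at control levels from 9 to 11). The list mean was 9.89 and 10.31 with IRP1 and 10.50 and 10.59 in the controls. Cd79a, a chain of the B cell receptor, was at -0.89 (SE 0.29), the complement receptor Cr2 at -0.87 (SE 0.23), the transcription factor Spib at -0.75 (SE 0.17) and the adaptor Blnk at -0.73 (SE 0.30), none with an adjusted p under 0.17. Of 20 genes of B and T cell receptor signalling 0 were called and 11 lay below both controls, with a median of -0.45. The 15 T cell genes had a median of -0.11 and ran from -0.66 (Cd6) to 0.77 (Cd8a).

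Genes of heme recycling and red pulp macrophages had a median of -0.32, and 1 of 20, Nr1h3, fell. Blvrb, a biliverdin reductase, was at -0.97 (SE 0.20, adjusted p = 0.111), Hmox1, the heme oxygenase that opens heme, at -0.81 (SE 0.19, adjusted p = 0.189), and the macrophage protein Cd68 at -0.70 (SE 0.28). In heme synthesis Alas2 was the 1 gene of 11 above both controls (9.09%, against 16.4% of all genes). Another 5 lay below both (45.5%, against 45.7% of genes at control levels from 9 to 11). The list's median was -0.50 at a median control level of 9.66, against -0.29 for genes at those levels. Alad was at -0.73 (SE 0.22), Ppox at -0.68 (SE 0.21) and Alas1 at -0.65 (SE 0.21). Alas1 is the form of the starting enzyme found in all tissues and has no IRE in its 5' UTR. The 16 erythroid genes were at a median of -0.09 with 0 called. Iron genes without a known IRE, 20 measured, had a median of -0.16 and 0 calls. The genes of IRP1 and IRP2, Aco1 and Ireb2, were at -0.36 (SE 0.27) and -0.76 (SE 0.26), and their list of 6 had 0 calls.

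All 14 TCA cycle genes were below 0, as were 9787 of all 18193 genes, with a median of -0.43 and 0 calls. Their median control level was 10.35, and all genes at levels from 9 to 11 had a median of -0.29. Of the 14, 9 lay below both controls (64.3%, against 45.7% of genes at those levels). Idh3b was at -0.64 (SE 0.23) and Fh1 at -0.59 (SE 0.21). Ribosomal protein genes, 12 in number, had a median of -0.28, and 9 reference genes one of -0.24, with 0 calls in either. Among 13 stromal and endothelial genes the median was -0.40, led by Stab2, a scavenger receptor of sinusoidal endothelium, at -0.93 (SE 0.28). Pancreatic acinar genes had a median of -0.05, but Cpb1, the pancreatic carboxypeptidase B, read 12.67 and 13.84 with IRP1 and 10.61 and 11.85 in the controls (2.02, SE 0.55, adjusted p = 0.257). Cpb1 was higher on the replicate 2 array in each reaction, as was the list mean.

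**Figure D4:**
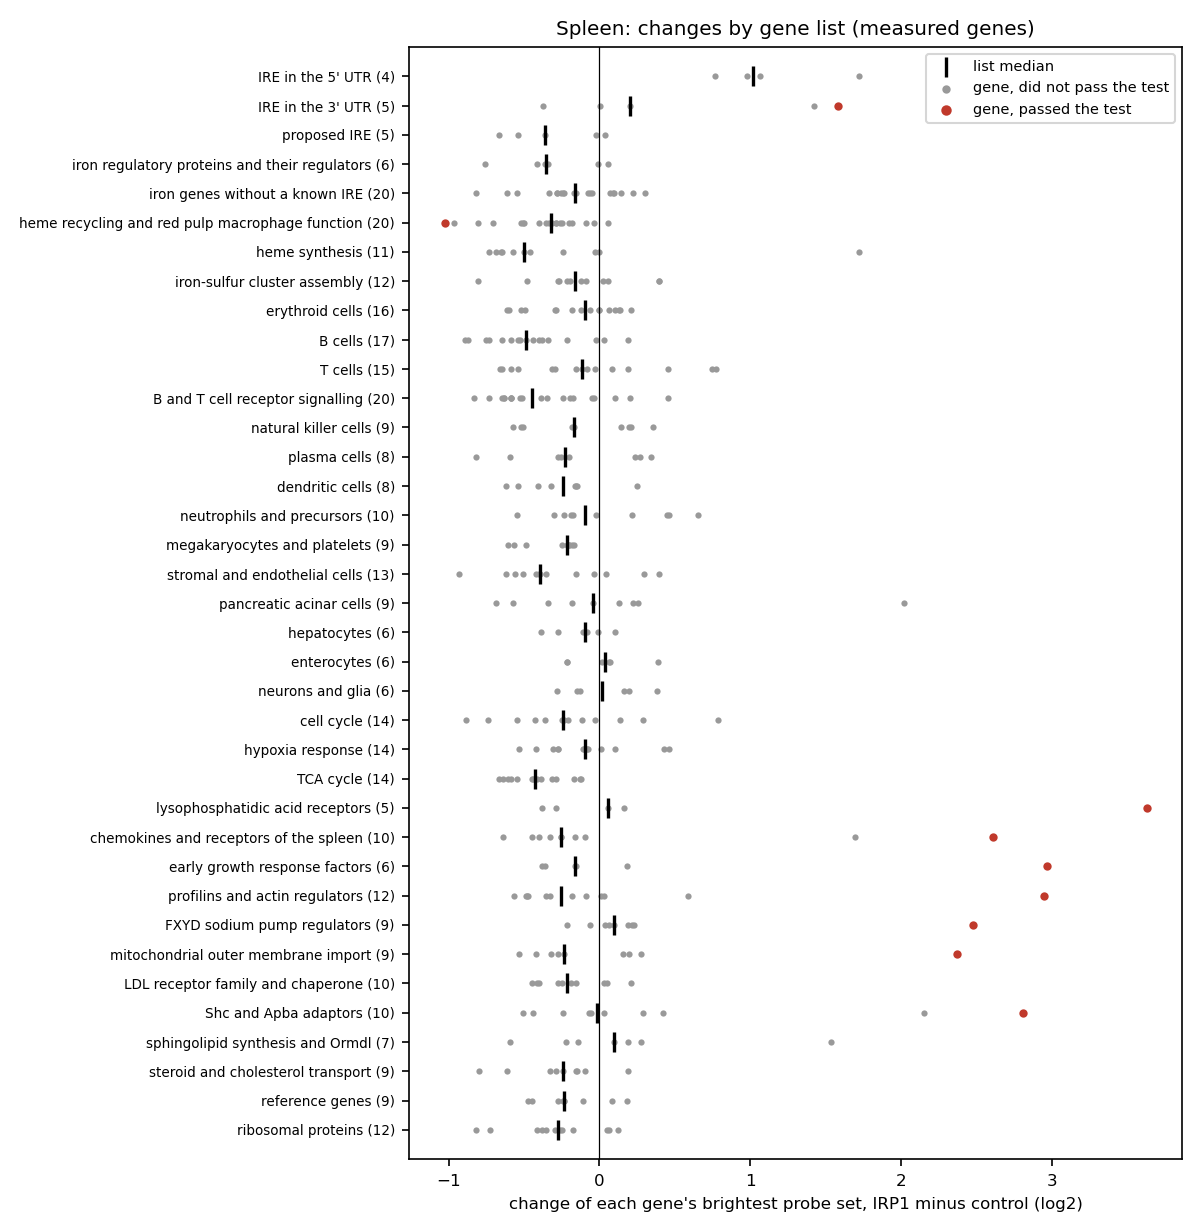
Change between IRP1 and control (log2, x axis) of each measured gene by its brightest probe set, 1 row per list with the number of genes in brackets; red points had an adjusted p under 0.05 and black bars are list medians. Single red points stand apart to the right in 7 family lists, drawn up with earlier results of these data known, and in the list of 3' UTR IREs. The medians of B cells (-0.49), heme synthesis (-0.50) and the TCA cycle (-0.43) lie left of 0. All genes at control levels from 9 to 11 had a median of -0.29.

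Further probe sets were close to the threshold. Over all probe sets, 61 (0.135%) were at least 2-fold higher and 16 (0.0355%) at least 2-fold lower in both same-numbered comparisons with groups apart, and 30 and 9 of these were not called. Those with the smallest p and a single symbol included Ssbp3, a single-stranded DNA-binding protein (1.99, SE 0.37, adjusted p = 0.0519), Gstt3, a glutathione transferase (1.70, SE 0.32), Rai14 (1.51, SE 0.29), Lsm12 (1.70, SE 0.34), Rcan3, a calcineurin regulator (1.44, SE 0.29), and Frem2, an extracellular matrix protein (1.11, SE 0.23). Nol8, a nucleolar protein, was the lower one among them at -1.06 (SE 0.21, adjusted p = 0.0933).

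The size of the increases differed between the replicates of the IRP1 reaction. In 30 of the 31 higher probe sets IRP1 replicate 2 was above replicate 1, by a median of 0.98 log2, whereas the control arrays differed by a median of 0.0049. Over all probe sets replicate 2 was above replicate 1 in 51.6%. The median change of the 31 was 1.92 with the replicate 1 arrays and 3.02 with the replicate 2 arrays. The 15 lower probe sets showed no such gap, with medians of -1.08 and -1.07. Bright probe sets in general shared it in part: for the 2755 with a mean control level of at least 10, IRP1 replicate 2 was above replicate 1 by a median of 0.56 and control replicate 2 above control replicate 1 by 0.22. The part of spread and hybridization in this was not tested.

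Increases of spleen were in most cases called in other tissues as well, and most decreases were not. All 31 higher probe sets had a positive change in each of duodenum, liver, bone marrow and brain, as did 3654 of all 45037, and their median change averaged over these tissues was 2.00. Of the 31, 6 were called in all 4 other tissues, 15 in 3, 2 in 2, 7 in 1, and 1, Pabpc4l, in none. Of the 15 lower ones, 13 were called in no other tissue; Marveld1 and Blmh were called in 2 others. There were 6 of the 15 with a negative change in each of the other tissues, among them Rbm33, at -0.37, -0.53, -0.19 and -0.37 in duodenum, liver, bone marrow and brain. The mean change of the 15 in the other tissues had a median of -0.21. How many of all 45037 probe sets were called in the other tissues, or were negative in each of them, was not counted. Increases and decreases also differed in size, with spleen medians of 2.52 and -1.14, and the part of size in the calls elsewhere was not tested.

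The difference itself was tested as the spleen change minus the mean change of the other 4 tissues, and by limma 0 of 45037 probe sets were called higher and 0 lower (0% in each direction), with 510 and 1125 at an unadjusted p under 0.05. The lowest adjusted p was 0.123, for Pabpc4l and Cd22. Pabpc4l changed by 0.22 in duodenum, 1.06 in liver, 0.17 in bone marrow and 0.39 in brain against 2.24 in spleen (difference 1.78, SE 0.26). Cd22 changed by -0.10, 0.07, -0.23 and -0.05 against -1.61 (difference -1.53, SE 0.23). Among the other lower genes the difference was -1.02 (SE 0.18) for Fcrl1, -1.16 (SE 0.21) for Sla, -1.08 (SE 0.21) for Rasal3 and -0.97 (SE 0.18) for Ighg3, with adjusted p between 0.335 and 0.384. It was -0.04 (SE 0.23) for Blmh. These are the called probe sets. By others the difference was 0.43 for Fcrl1, -0.72 for Rasal3, -0.40 for Blmh and -0.78 for Cd22. It ran from 0.06 to 0.26 for Ighg3 and from -0.10 to 0.41 for Sla. The mean signal of the 17 B cell genes was at most 8.70 on any array elsewhere, and the part of such lower levels in these differences was not tested.

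How the changes of IRE genes in spleen compared with those elsewhere varied by probe set. The dimmer Slc40a1 probe set changed by 1.54 in duodenum, 2.61 in liver, 3.86 in bone marrow and 3.59 in brain against 2.54 in spleen (difference from their mean -0.36, SE 0.33). For the brighter one this difference was -0.73 (SE 0.30). The brighter Fth1 probe set changed by 0.54 in duodenum, 0.54 in liver, 1.55 in bone marrow and 0.57 in brain against 0.98 in spleen (difference 0.18, SE 0.26). For the brightest Tfrc probe set the difference was -0.77 (SE 0.31). It was 0.16 (SE 0.31) for the one of middle brightness. For the dimmest, with controls near the floor, it was 0.68 (SE 0.20). It was -0.62 (SE 0.43) for Alas2, -0.35 and -0.07 for Epas1, and -0.55, -0.18 and -1.06 for the probe sets that list Ftl1. The dimmer Fth1 probe set was at 0.10, and those of Slc11a2 ran from -0.37 to 0.23. Each had an adjusted p of 0.9999 by limma. Lpar1 changed by 2.43 to 3.09 elsewhere against 3.63 in spleen by its brightest probe set (difference 0.86, SE 0.34, adjusted p = 0.9999). By its second called probe set the change was 3.20 in brain and 3.15 in spleen (difference from the mean of the other tissues 0.76, SE 0.27). The remaining one changed by 2.135 in brain and 1.66 in duodenum against 1.19 in spleen. Against bone marrow alone, the other blood-forming tissue, 0 probe sets were called in either direction by limma (0%), with 1017 higher and 2793 lower at an unadjusted p under 0.05; diet and age differ between these tissues and cannot be told apart from tissue.

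**Figure D5:**
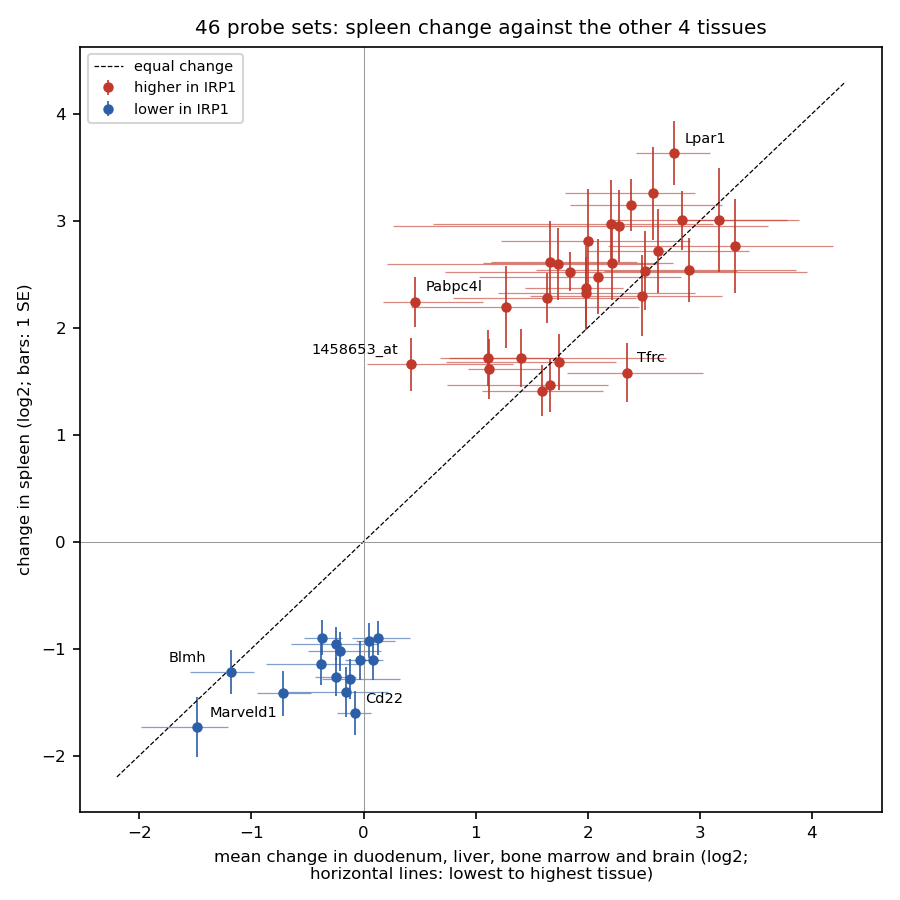
Change in spleen (log2, y axis, bars 1 standard error) of the 46 called probe sets against their mean change in duodenum, liver, bone marrow and brain (x axis, lines from the lowest to the highest tissue); the dashed line marks equal change. In 23 of the 31 higher probe sets the red point lies above the line, but the 31 were chosen by their spleen change. In 7 of them spleen had the largest change of the 5 tissues, and the test of the difference called 0 probe sets. Pabpc4l lies far left of the line (0.46 on the x axis). Of the 15 blue points, 13 had no call in another tissue, with Marveld1 and Blmh near the line.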

How the data were processed

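The values, as deposited by the authors, are log2 signals of probe sets. Per the series design text the authors computed them with RMA, or with MAS5 in GCOS followed by quantile normalization; which of these made the table is not given in the sources used here. They were analysed without a filter or rescaling. A linear model of 10 groups (tissue by reaction) over the 20 arrays was fitted in limma 3.58.1 (R 4.3.3; lmFit and eBayes, 10 residual degrees of freedom and a prior of 6.14), and p-values are two-sided with Benjamini-Hochberg adjustment over 45037 probe sets; probe sets were called at an adjusted p under 0.05. SE is the standard error of a change in this model. The number of arrays limits the precision.

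The platform annotation gives 1 gene symbol for 34945 probe sets, several for 932 and none for 9160. In lists a gene is represented by its brightest probe set in spleen. Named are up to 25 higher and 15 lower called genes with at least a 2-fold change, a single symbol and groups apart, all measured members of the IRE lists, up to 4 members of every other list, up to 10 genes near the threshold, and up to 8 per difference between tissues (0 qualified); the decreases under 2-fold were named after their values were seen. The members and the 37 lists were chosen with earlier results of these data known. List genes without a probe set of a single symbol were not analysed here. The procedure was tested on simulated data. Alternatives were a replicate block, the spleen arrays alone, other scalings, filters and variance models, and leaving out arrays. Plots were made in matplotlib 3.10.9 (Python 3.11.15).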

Additional observations from a re-analysis of the deposited data

How the results depend on the processing

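Against 31 higher and 15 lower probe sets, 107 were called higher after a further quantile normalization and 48 with dim probe sets left out (log2 6 in at least 2 spleen arrays; 20046 tested); with values under 5 set to 5, 63 were called lower. Higher and lower calls were 0 and 0 with the 4 spleen arrays alone and 5 and 0 without the 2 arrays with weak hybridization spikes. Leaving out each spleen array in turn gave 6 to 210 higher and 0 to 12 lower calls. Median centring left 31 and 15. The difference from the other 4 tissues, with 0 calls, gave 26 higher and 75 lower with the floor at 5, 1 and 1 with a trended robust variance, and 0 to 2 higher with a spleen array left out. That from bone marrow gave 8 higher and 36 lower with the floor, 1 higher with the trended variance, and 0 to 1 higher with an array left out. The causes were not tested. The labels do not pair the replicate numbers, and the correlation of same-numbered deviations was 0.533 in spleen, 0.272 in duodenum, 0.119 in brain, -0.0742 in liver and -0.0389 in bone marrow. Same-numbered spleen arrays thus deviated together, a hint from the data, but not those of every tissue, and pairing was not taken as given. A replicate block gave 46 higher and 10 lower calls (31 and 9 shared with the fit without it) and 1 higher against bone marrow; with it the calls of Mga, Rasal3, Nr1h3, Ighg3, Rbm33 and Fcrl1 were lost and Cpb1 (2.02, adjusted p = 0.00127) was called. No named value that was called changed sign in these settings.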

Other observations

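Malat1, a nuclear long non-coding RNA, was at least 2-fold lower with IRP1 by 2 of its 7 probe sets in both same-numbered comparisons, without passing the test: one read 11.10 and 10.53 with IRP1 and 12.12 and 12.02 in the controls (-1.25, SE 0.50, adjusted p = 0.443). The other read 6.20 and 5.13 against 7.46 and 6.94 (-1.53, SE 0.57, adjusted p = 0.412). Klf2, a transcription factor of resting lymphocytes and endothelium, read 8.99 and 8.83 against 9.92 and 9.84 (-0.97, SE 0.18, adjusted p = 0.0632). Among the 11 probe sets of Ighm, the immunoglobulin mu chain, changes ran from -0.97 (SE 0.19, adjusted p = 0.0661) to 0.27 (SE 0.22). These genes were chosen after their values were seen.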
